A study of Homo sapiens with 12 samples.

Results

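The endoplasmic reticulum (ER) folding and translocation genes are 49 genes whose proteins bring new secretory and membrane proteins into the ER, fold them, attach their sugars, hold them there, or sense and clear those that fail to fold. They were chosen by gene symbol. Of the 49 genes, 46 had at least 1 probe set of their own on the array, of 11963 genes with one in all. They had 82 of its 22283 probe sets, and 25 genes had 1 and 21 had several. DNAJB11, KDELR2 and PDIA5 had none. A further 3 probe sets were listed for a member together with a microRNA gene and were not counted as members. RNA was measured on 12 Affymetrix human expression arrays in 4 groups of 3: ρ° and ρ+ cells of A549, and ρ° and ρ+ cells of 143BTK-. A549 is an epithelial line of a lung adenocarcinoma, and 143BTK- is an osteosarcoma line without thymidine kinase. The ρ° cells had lost their mitochondrial DNA (mtDNA) through culture with ethidium bromide (50 ng/ml, 3 weeks) and were not cloned. The ρ+ cells were their undepleted parents. All groups grew with 10% fetal calf serum, 1 mM pyruvate and 50 µg/ml uridine, so loss of mtDNA and the past exposure to ethidium bromide cannot be told apart. In a bulk sample, a change in every cell and a change in the share of cells that express a gene cannot be told apart either.

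Proteins with a signal sequence reach the ER through the SEC61 channel, helped by SEC62, SEC63, TRAM1 and the SSR (TRAP) subunits, while oligosaccharyltransferase adds a preformed sugar to them. In the lumen HSPA5 (BiP), HSP90B1 (GRP94) and their co-factors hold unfolded chains, the lectins calnexin (CANX) and calreticulin (CALR) retain glycoproteins, and protein disulphide isomerases form and exchange disulphide bonds. When unfolded protein accumulates, the sensors ATF6, ERN1 (IRE1) and EIF2AK3 (PERK) raise the transcription of many of these genes, in part through the transcription factor XBP1. HSPA5 and HERPUD1 are among the best known targets of this unfolded protein response.

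Signals of the arrays of a line share 1 distribution, since the authors normalized the lines apart, so levels are compared only within a line. The quality values singled out 1 array: the 3′ to 5′ signal ratio of the ACTB control was 8.81 on the ρ+ C array of A549 and 0.86 to 2.83 on the other 11, while the ratio of the GAPDH control was 0.77 to 1.34 on all 12. Of 5 epithelial markers, 4 were lower on all A549 ρ° arrays than on any A549 ρ+ array. KRT18 was at 2364.5 to 4824.3 on ρ° arrays, against 7017.2 to 9407.5 on ρ+ arrays, and KRT8 at 1141.3 to 2040.2 on ρ° arrays, against 2214.7 to 4298.7 on ρ+ arrays. KRT19 was at 2.1 to 5.5 on ρ° arrays, against 373.3 to 471.4 on ρ+ arrays, and CDH1, by its brighter probe set, at 84.2 to 144.3 on ρ° arrays, against 221 to 372.4 on ρ+ arrays. The other, EPCAM, was at most 12.8 on any A549 array. In 143BTK- the bone-matrix gene SPARC was at 491 to 805.2 by its brighter probe set and at 34.1 to 102.2 by the other, and COL1A1 at 62.2 to 116.2 by its brightest, while COL1A2, RUNX2 and ALPL were at most 21.1. What part the change of these markers in A549 has in the results was not tested.

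Among the 143BTK- arrays, the ρ+ C array stood apart within the members, by their own signals and not by its quality values. With 1 probe set for each gene, it had the highest signal of the 6 arrays of its line for 15 of 45 member genes (33.3%), against 19.5% of all probe sets tested, and for 7 of 10 genes with an ER stress response element in their promoter. The ρ+ C array of A549 was the highest for 6 of 45 (13.3%), against 20.2% of all, and for 3 of the 10 genes with an element. The ρ° A array of A549 was the highest for 16 of 45 (35.6%), against 17% of all, and for 2 of the 10. Member calls that changed when the ρ+ C array of the line was left out are given with and without it, as are the values it moved most. Leaving out a ρ+ array raises the change of any gene for which it is the highest ρ+ array. Leaving out a ρ° array lowers the change of any gene for which it is the highest ρ° array. The direction of such shifts is therefore fixed in advance.

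In A549 10 of the 45 tested member genes had at least 1 probe set that rose in ρ° cells (22.2%, against 6.73% of all genes tested) and 1 had one that fell (against 6.8%). By the brightest probe set of each member gene, 8 rose and 1 fell, but the share of all genes by this stricter rule was not computed. Of the 78 member probe sets that were bright enough to be tested (45 genes), 18 probe sets of 10 genes were higher in ρ° cells at an adjusted p under 0.05 (limma, over all probe sets kept in the line), which is 23.1% of the members against 5.66% of all probe sets tested. The 10 genes were HSP90B1, SIL1, CANX, PDIA6, ERP29, OS9, KDELR1, KDELR3, SSR1 and SERP1. Only 1 member probe set, of TRAM1, was lower, against 5.2% of all probe sets. The log2 change was positive for 66 of 78 member probe sets, with a median of 0.38, while the median of all probe sets was 0.00 and 49.7% of them were positive. Values of the 3 ρ° arrays were all above those of the 3 ρ+ arrays for 37 of the 78, against 15.8% of all probe sets, and all below for 4, against 16.1%. The 19 calls became 5 without ρ° array A, 10 without ρ° array B and 8 without ρ+ array B, and 22 without ρ+ array C, where HSPA5, XBP1, PDIA3 and SEC63 passed and a PDIA6 probe set no longer did. DNAJC3, an inhibitor of PERK and co-chaperone of HSPA5, was under the signal limit in both lines.

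In 143BTK- no member and no other kept probe set passed the adjusted threshold. At an unadjusted p under 0.05, 9 of 79 member probe sets were higher in ρ° cells, against 3.79% of all probe sets, and 5 were lower, against 4.6%. The 3 ρ° arrays were all above the 3 ρ+ arrays for 16 member probe sets, against 7.37% of all, and all below for 7, against 7.47%. The median change of the members was 0.07, and 43 of 79 were positive. Over both lines together, the mean change was higher in ρ° cells for 8 of 78 member probe sets, against 1.97% of the 12139 tested, and lower for 0, against 1.73%. These 8 belonged to CANX, ERP29, OS9, PDIA6 and SSR1. They became 3, 4 and 5 without A549 ρ° array A, B or C, 4 and 5 without A549 ρ+ array B or C, 5 without 143BTK- ρ° array A, 4 without 143BTK- ρ+ array B and 13 without 143BTK- ρ+ array C, where probe sets of CALR, HSP90B1, KDELR3, PDIA3, PDIA6 and RCN2 passed and CANX 208853_s_at no longer did.

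**Figure D1:**
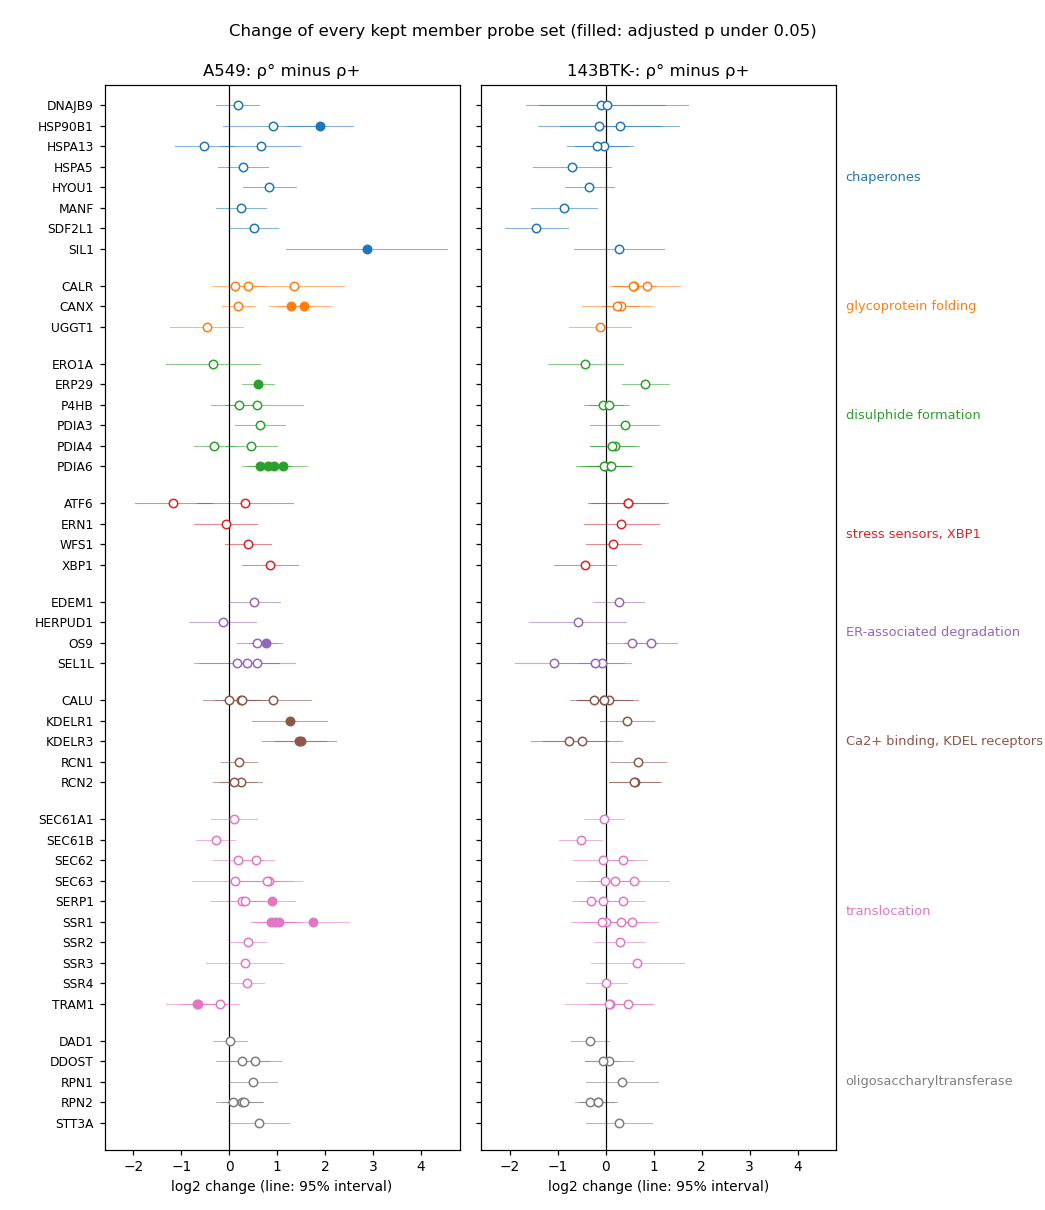
Each row is a member gene, each point 1 of its tested probe sets, placed at its log2 change (ρ° minus ρ+) in A549 on the left and in 143BTK- on the right, with the 95% interval as a line and filled where the adjusted p was under 0.05; colours mark the roles. In A549 66 of 78 points lie above 0 and 19 are filled, and in 143BTK- 43 of 79 lie above 0 and none is filled.

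Genes of the unfolded protein response often carry an ER stress response element before their start, and these are shown because members with and without changes share it. Windows of 250 bases before to 50 after the starts of RefSeq transcripts (GRCh38.p14) were searched on both strands for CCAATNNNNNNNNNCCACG and for the shorter ATTGGNCCACG, whose ATTGG is CCAAT read on the other strand. Windows were found for 45 of the 49 members. The longer element was in windows of 7 members and the shorter in 3 others, 22.2% of the members with a window, against 0.161% of all 27305 genes with a window. The 10 members were HSPA5, HSP90B1, CALR, CANX, PDIA6, SERP1 and XBP1 with the longer element, and HYOU1, HERPUD1 and SDF2L1 with the shorter. Many of the members are known as targets of the unfolded protein response, so this share describes which genes the list holds. Stretches around the element are given for 4 genes that rose in A549 and for 3 that did not pass there, on the strand of the gene, with the fixed letters of the element in capitals.
CANX (chr5:179698773-179698801, +): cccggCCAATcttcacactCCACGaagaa
HSP90B1 (chr12:103930301-103930359, +): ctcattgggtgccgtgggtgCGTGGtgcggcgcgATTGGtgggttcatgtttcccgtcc
PDIA6 (chr2:10812848-10812876, -): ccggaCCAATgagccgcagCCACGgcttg
SERP1 (chr3:150546690-150546746, -): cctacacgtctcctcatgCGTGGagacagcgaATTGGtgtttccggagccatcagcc
HSPA5 (chr9:125241371-125241429, -): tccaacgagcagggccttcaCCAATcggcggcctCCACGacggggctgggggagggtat
HERPUD1 (chr16:56932005-56932055, +): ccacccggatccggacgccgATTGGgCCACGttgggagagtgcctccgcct
SDF2L1 (chr22:21642094-21642144, +): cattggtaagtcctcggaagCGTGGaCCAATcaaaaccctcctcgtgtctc

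The element of HSPA5 ended 47 bases before the start, and that of SDF2L1 lay 177 bases before it in the opposite direction. HSP90B1 held 2 longer elements and HYOU1 2 shorter ones. The elements of CANX and PDIA6 lay within the span of the gene, before a transcript start inside it. They are printed with 5 bases on either side. In A549, 4 of the 10 genes with an element (CANX, HSP90B1, PDIA6 and SERP1) and 6 of the 32 tested genes without one in their window had a probe set that rose, against 6.73% of all genes tested. Taking the median over the probe sets of each gene, the median log2 change was 0.68 with and 0.34 without an element in A549. In 143BTK- it was -0.20 with and 0.15 without. Without the ρ+ C array of each line these values were 0.68 with and 0.27 without an element in A549, and -0.03 with and 0.13 without in 143BTK-. The gene median was positive for 9 of the 10 genes with an element in A549 and for 4 of the 10 in 143BTK-, and without the ρ+ C array for 10 and 4. Of the 32 tested genes without an element it was positive for 27 in A549 and 20 in 143BTK-, and without the ρ+ C array for 26 and 24. In A549 most members were thus positive with or without an element. These are descriptions with no test, and the letters alone are no measure of binding.

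Among the chaperones of the lumen and their co-factors, HSP90B1, the ER member of the HSP90 family, rose in A549. Its brighter own probe set read 320.2, 191.7 and 204.5 on ρ° arrays, against 53.2, 95.5 and 48.7 on ρ+ arrays, a 3.70-fold difference (log2 change 1.89 ± 0.31, SE; adjusted p = 0.00528). All 3 ρ° arrays were above all 3 ρ+ arrays. The other HSP90B1 probe set read 55.3, 63.9 and 31.1 on ρ° arrays, against 14.4, 24.6 and 46.9 on ρ+ arrays, and did not pass (log2 change 0.91 ± 0.46, adjusted p = 0.238). Both are of a type that can read related transcripts, as are all probe sets with names ending in x_at (11 of the 82 member probe sets). A probe set listed for HSP90B1 and MIR3652 together read 881.4, 515.1 and 496.1 on A549 ρ° arrays, against 231.7, 168.8 and 215.9 on A549 ρ+ arrays (log2 change 1.58, adjusted p = 0.00479), and the other such probe set had a log2 change of 1.08 (adjusted p = 0.00969). In 143BTK- the brighter HSP90B1 probe set read 698, 787.8 and 336.5 on ρ° arrays, against 209.5, 452.2 and 1063.9 on ρ+ arrays. The groups overlapped there, with the ρ+ C array the highest of the 6. Without that array the change was 0.89 ± 0.44 (adjusted p = 0.603), and with it 0.29 ± 0.55. The other HSP90B1 probe set had a 143BTK- change of -0.48 ± 0.59 without that array. With all arrays, the probe sets listed with MIR3652 had 143BTK- changes of -0.09 and -0.05.

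SIL1, the nucleotide exchange factor of HSPA5, had the largest fitted change of the members in A549 and the largest standard error. It read 112, 209.4 and 140.1 on ρ° arrays, against 4.3, 45.6 and 43.5 on ρ+ arrays (log2 change 2.86 ± 0.76, adjusted p = 0.0378). Without the ρ+ A array, which had the lowest signal, the change was 1.74 (adjusted p = 0.0121), and with 64 added to every signal it was 1.20 (adjusted p = 0.00423), below those of CANX 208853_s_at (1.30) and HSP90B1 216449_x_at (1.22). The call was lost without ρ° array A, B or C (adjusted p = 0.0774 to 0.134), with no filter (adjusted p = 0.0724) and with no intensity trend (adjusted p = 0.0902). In 143BTK- SIL1 read 140.9, 158 and 65.9 on ρ° arrays, against 59.8, 128.8 and 107 on ρ+ arrays, and the groups overlapped (log2 change 0.28).

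HSPA5 itself, the major chaperone of the lumen, did not pass in either line. In A549 it read 883.5, 986.9 and 943.1 on ρ° arrays, against 705.1, 563.2 and 1137.5 on ρ+ arrays (log2 change 0.29 ± 0.24, adjusted p = 0.471). The ρ+ C array was above all ρ° arrays, and without it the change was 0.57 ± 0.17 and passed (adjusted p = 0.0476). The 143BTK- signals were 942.4, 1516 and 698.6 on ρ° arrays, against 1245.5, 1257.2 and 2704.5 on ρ+ arrays (log2 change -0.70 ± 0.36, adjusted p = 0.66), and without the ρ+ C array the change was -0.32 ± 0.31.

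SDF2L1, a lumenal protein that works with HSPA5 and its DNAJB co-chaperones, had changes of opposite sign in the lines, neither of which passed alone. In A549 it read 135.4, 163.7 and 155.7 on ρ° arrays, against 86.6, 106.5 and 126.6 on ρ+ arrays (log2 change 0.52 ± 0.22, adjusted p = 0.166). In 143BTK- it read 83.7, 96.9 and 68.4 on ρ° arrays, against 174.6, 208.4 and 309.5 on ρ+ arrays (log2 change -1.45 ± 0.29, adjusted p = 0.31). All ρ° arrays were above all ρ+ arrays in A549 and below them in 143BTK-. The difference between the lines passed (1.97 ± 0.37 on the log2 scale, A549 minus 143BTK-, adjusted p = 0.017), also with each of the 12 arrays left out in turn and with both ρ+ C arrays left out (1.87 ± 0.35, adjusted p = 0.0218). SDF2L1 had the largest change of any member in 143BTK-.

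MANF, a secreted factor of the ER induced by unfolded protein, read 313.3, 422.9 and 235.9 on 143BTK- ρ° arrays, against 457.7, 492.1 and 841.6 on 143BTK- ρ+ arrays (log2 change -0.87 ± 0.31, adjusted p = 0.55). In A549 its groups overlapped (log2 change 0.24, and 0.40 without the ρ+ C array). HYOU1, the large HSP70-like exchange factor of the lumen, read 520.4, 442 and 616.6 on A549 ρ° arrays, against 421.7, 242.4 and 244 on A549 ρ+ arrays (log2 change 0.84 ± 0.25, adjusted p = 0.0571), with a log2 change of -0.34 in 143BTK-. DNAJB9 (ERdj4), which acts on HSPA5, overlapped between groups in both lines. In 143BTK- it read 69.9, 199.8 and 68.6 on ρ° arrays, against 82.5, 58.5 and 240.2 on ρ+ arrays, so that 1 array of each group stood far above its other 2. HSPA13, an HSP70-like ATPase of microsomes, had 2 probe sets of opposite sign in A549, -0.53 and 0.66, neither of which passed. Over the 8 tested genes of this role, with the brightest probe set of each, 7 changes were positive in A549 (median 0.40) and 2 in 143BTK- (median -0.21).

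**Figure D2:**
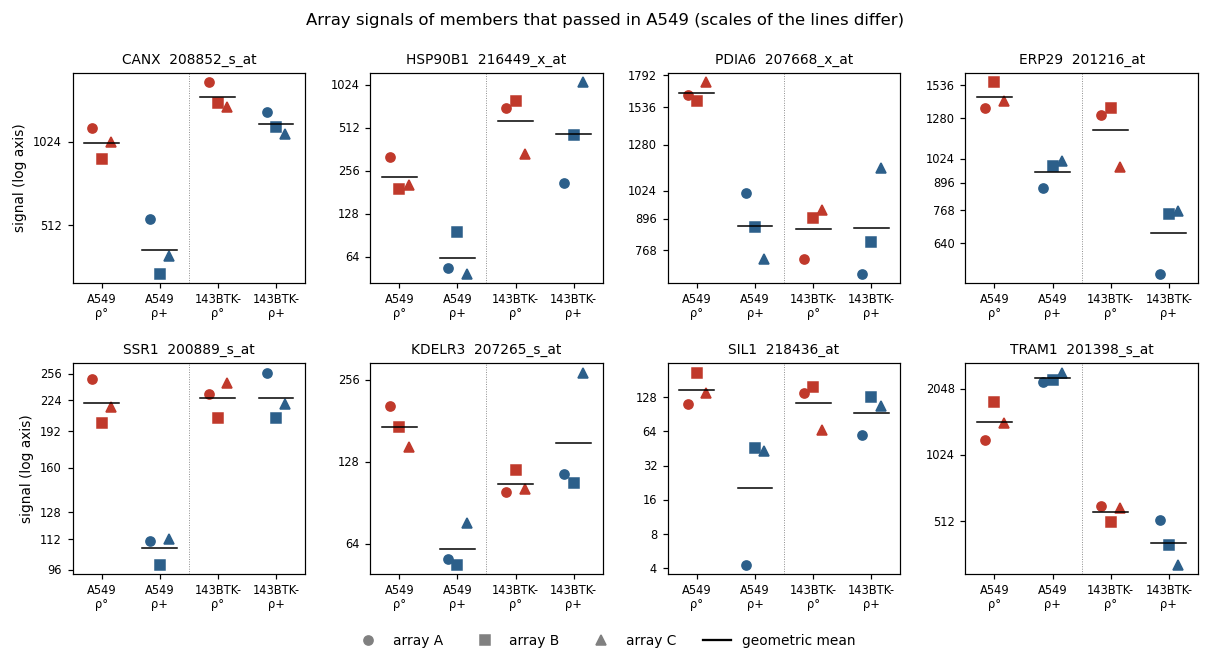
Each panel gives the signal of 1 probe set on a log axis for every array (A, B and C by marker shape) of ρ° and ρ+ cells of A549 and then of 143BTK-, with the geometric mean of each group as a bar. In A549 the ρ° arrays lie above the ρ+ arrays in every panel except that of TRAM1, where they lie below, while in 143BTK- they lie above for CANX (208852_s_at) and ERP29 and overlap for the other 6.

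Of the glycoprotein folding genes, CANX rose in A549 by 2 of its 3 probe sets, each of which also passed with any 1 array left out. Its probe set 208852_s_at read 1148.7, 890.2 and 1023.2 on ρ° arrays, against 541, 341.8 and 394.8 on ρ+ arrays, a 2.43-fold difference (log2 change 1.28 ± 0.20, adjusted p = 0.0049). Probe set 208853_s_at read 728.5, 438.5 and 631 on ρ° arrays, against 259.9, 157.8 and 193.4 on ρ+ arrays (log2 change 1.56 ± 0.25, adjusted p = 0.0051). The other and brightest, 200068_s_at, read 2026.3, 2093.1 and 2052.9 on ρ° arrays, against 1814.4, 1508.5 and 2137.6 on ρ+ arrays (log2 change 0.19 ± 0.16, adjusted p = 0.465). Which transcript forms each reads was not tested. In 143BTK- 208852_s_at read 1682, 1418.8 and 1373.9 on ρ° arrays, against 1308.8, 1160.7 and 1097.4 on ρ+ arrays (log2 change 0.33 ± 0.16, adjusted p = 0.652). There 208853_s_at read 1805, 1317.3 and 701.7 on ρ° arrays, against 1249.9, 951.3 and 863 on ρ+ arrays, with overlap. The mean change of 208852_s_at over both lines was 0.80 ± 0.13 (adjusted p = 0.00812), the lowest p of the members, and it passed with each array left out in turn. That of 208853_s_at also passed, but was lost without any 1 of 10 of the 12 arrays (adjusted p = 0.0532 to 0.115).

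CALR, the soluble partner of calnexin and a calcium store of the lumen, had 3 probe sets, none of which passed after adjustment in a line. In 143BTK- all 3 had an unadjusted p under 0.05 and no overlap of the groups. The brightest, 212953_x_at, read 750.3, 626.7 and 647.5 on ρ° arrays, against 479.8, 401.5 and 462.7 on ρ+ arrays (log2 change 0.59 ± 0.19, adjusted p = 0.529). In A549 it read 942.1, 944.4 and 939.4 on ρ° arrays, against 1077.4, 987.2 and 624.3 on ρ+ arrays (log2 change 0.11 ± 0.21), with the ρ+ C array lowest, and without that array the change was -0.13 ± 0.15. Probe set 200935_at had a log2 change of 1.36 ± 0.46 in A549 (adjusted p = 0.0901) and of 0.85 ± 0.30 in 143BTK- (adjusted p = 0.551), and 214315_x_at one of 0.38 in A549 and 0.56 in 143BTK-. In A549 the change of 200935_at was 0.76 ± 0.30 without the ρ+ C array. UGGT1, which senses misfolded glycoproteins, did not pass (-0.47 in A549 and -0.12 in 143BTK-).

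Of the genes of disulphide formation, PDIA6 rose in A549 by all 4 of its probe sets. Probe set 207668_x_at read 1630.8, 1579.2 and 1732.9 on ρ° arrays, against 1014.7, 860.4 and 738.1 on ρ+ arrays, a 1.91-fold difference (log2 change 0.93 ± 0.16, adjusted p = 0.00675). Probe set 216640_s_at read 1278.8, 1209.9 and 1190.3 on ρ° arrays, against 818.6, 496.9 and 443.5 on ρ+ arrays (log2 change 1.12 ± 0.22, adjusted p = 0.0127). In both, all ρ° arrays were above all ρ+ arrays. Probe set 208638_at read 864.4, 667.1 and 751 on ρ° arrays, against 354, 475.1 and 489.3 on ρ+ arrays (log2 change 0.80 ± 0.19, adjusted p = 0.0264), and 208639_x_at read 1690.9, 1247.8 and 1361.3 on ρ° arrays, against 867.9, 1032.1 and 843 on ρ+ arrays (log2 change 0.64 ± 0.17, adjusted p = 0.0371). The call of 207668_x_at held with any 1 array left out. That of 216640_s_at was lost without ρ° array A or ρ+ array B (adjusted p = 0.0618 to 0.0661), that of 208638_at without any array but ρ+ C (adjusted p = 0.0543 to 0.125) and that of 208639_x_at without any of the 6 (adjusted p = 0.0506 to 0.162). In 143BTK- the 4 changes lay between -0.03 and 0.10, with the groups overlapping in each. There 207668_x_at read 738, 897.7 and 932.4 on ρ° arrays, against 685.9, 799.5 and 1143.8 on ρ+ arrays, and 216640_s_at read 699, 771.9 and 755.8 on ρ° arrays, against 631.8, 665.7 and 786.1 on ρ+ arrays. The 143BTK- signals of 208638_at were 625.5, 553.9 and 470.7 on ρ° arrays, against 481, 564.3 and 506.9 on ρ+ arrays, and those of 208639_x_at 687.4, 890.1 and 689.6 on ρ° arrays, against 574, 714.1 and 1097.4 on ρ+ arrays. The ρ+ C array was the highest of the 6 for 3 of these probe sets. The mean change over both lines passed for 216640_s_at. Its change in 143BTK- was at most 0.10, so this call came mainly from A549. It was lost without any 1 of 10 of the 12 arrays (adjusted p = 0.0508 to 0.103). The probe set listed for PDIA5 and MIR7110 together read 399.8, 491.8 and 321.9 on A549 ρ° arrays, against 127.5, 126.8 and 180.3 on A549 ρ+ arrays (log2 change 1.48, adjusted p = 0.00465).

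ERP29, a lumenal protein with a thioredoxin fold but no redox activity, was higher in ρ° cells by its mean change over both lines and in A549 alone. In A549 it read 1357.7, 1564.5 and 1408.4 on ρ° arrays, against 869, 980.6 and 1010.1 on ρ+ arrays (log2 change 0.60 ± 0.15, adjusted p = 0.029). In 143BTK- it read 1301.5, 1357.1 and 978.7 on ρ° arrays, against 540.4, 754.6 and 767.1 on ρ+ arrays (log2 change 0.82 ± 0.22, adjusted p = 0.391). The groups did not overlap in either line. The mean change was 0.71 ± 0.13, or 1.64-fold (adjusted p = 0.0128), and it passed with each of the 12 arrays left out in turn, while the call in A549 alone was lost without any array but ρ+ C (adjusted p = 0.0522 to 0.107). PDIA3, the partner of the calnexin cycle, read 697.3, 532.8 and 680.5 on A549 ρ° arrays, against 305.6, 383.6 and 564.4 on A549 ρ+ arrays (log2 change 0.64 ± 0.24, adjusted p = 0.111). Without the ρ+ C array, the highest of its group, the change was 0.89 ± 0.20 and passed (adjusted p = 0.0156). In 143BTK- PDIA3 read 783.5, 883.1 and 1108.7 on ρ° arrays, against 464.2, 635.7 and 1141.3 on ρ+ arrays (log2 change 0.40, and 0.75 ± 0.24 with adjusted p = 0.511 without the ρ+ C array). P4HB, the founding disulphide isomerase, PDIA4 and ERO1A, the oxidase that recharges these enzymes, did not pass in either line. The brightest P4HB probe set read 3329.6, 3009.5 and 3610.5 on A549 ρ° arrays, against 2907.1, 2587.6 and 3144.7 on A549 ρ+ arrays.

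None of the sensors and regulators of the unfolded protein response passed in either line with all arrays. XBP1 read 185.3, 165 and 171 on A549 ρ° arrays, against 71.1, 89.4 and 140.6 on A549 ρ+ arrays (log2 change 0.85 ± 0.27, adjusted p = 0.0687). The ρ+ C array was the highest of the ρ+ arrays, and without it the change was 1.12 ± 0.23 and passed (adjusted p = 0.00987). In 143BTK- XBP1 read 144.4, 154.9 and 119.2 on ρ° arrays, against 177.3, 140.7 and 258.6 on ρ+ arrays (log2 change -0.42 ± 0.28, and -0.19 ± 0.27 without the ρ+ C array). The array measures the amount of XBP1 RNA and not its splicing by ERN1. The change of ATF6 in A549 was negative. Its brighter probe set read 46.1, 22.8 and 42.3 on ρ° arrays, against 54.5, 85.5 and 108.3 on ρ+ arrays (log2 change -1.17 ± 0.36, adjusted p = 0.0654), and its dimmer one had a log2 change of 0.33. ERN1 and WFS1, a membrane protein of the ER mutated in Wolfram syndrome, had log2 changes of -0.07 and 0.39 in A549 and of 0.32 and 0.16 in 143BTK-, where that of ERN1 was 0.10 without the ρ+ C array.

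**Figure D3:**
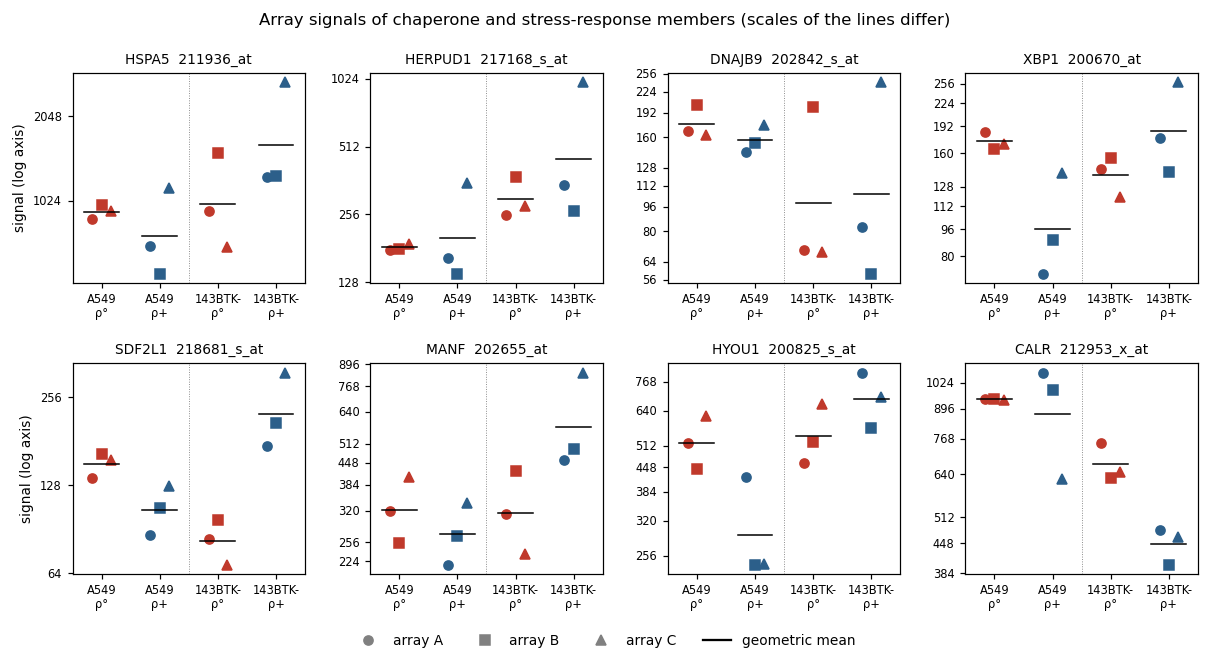
Panels as in the plot of members that rose, for 8 chaperone and stress-response members: signal of every array on a log axis, with the geometric mean of each group as a bar. In 143BTK- the ρ+ C array (triangle) is the highest array for HSPA5, HERPUD1, DNAJB9, XBP1, SDF2L1 and MANF.

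Of the ER-associated degradation genes, OS9, a lectin that passes misfolded glycoproteins to the ubiquitin ligase, was higher in ρ° cells by its mean change over both lines and in A549 alone. Probe set 200714_x_at read 1259.3, 1145.8 and 1093 on A549 ρ° arrays, against 617.3, 744.4 and 702.3 on A549 ρ+ arrays (log2 change 0.76 ± 0.16, adjusted p = 0.014), a call that was lost without ρ° array A (adjusted p = 0.0783). Its 143BTK- signals were 415.4, 484.7 and 508.9 on ρ° arrays, against 285.1, 269 and 422.3 on ρ+ arrays. In 143BTK- probe set 215399_s_at read 169.9, 223.2 and 162.2 on ρ° arrays, against 96.3, 87.5 and 103.3 on ρ+ arrays (log2 change 0.94 ± 0.24, adjusted p = 0.391), and in A549 it read 332, 369 and 352.3 on ρ° arrays, against 254.3, 251.8 and 199.9 on ρ+ arrays (log2 change 0.58 ± 0.19, adjusted p = 0.0732). The mean change was 0.76 ± 0.15 for this probe set (adjusted p = 0.0145) and 0.66 ± 0.14 for 200714_x_at (adjusted p = 0.0203). That of 215399_s_at passed with each of the 12 arrays left out, and that of 200714_x_at was lost without A549 ρ° array A or B, A549 ρ+ array B or 143BTK- ρ+ array B (adjusted p = 0.0516 to 0.0676). SEL1L, the scaffold of the ligase, had a log2 change of 0.58 ± 0.21 in A549 by its brightest probe set (adjusted p = 0.101). A dim SEL1L probe set, 202064_s_at, read 50.9, 23.6 and 23.5 on 143BTK- ρ° arrays, against 69.4, 55.6 and 69.9 on 143BTK- ρ+ arrays (log2 change -1.09 ± 0.36, adjusted p = 0.534).

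HERPUD1, which brings substrates to that ligase and is one of the most inducible genes of the unfolded protein response, did not pass. It read 178.9, 180.2 and 189.4 on A549 ρ° arrays, against 164.5, 139.7 and 354.4 on A549 ρ+ arrays (log2 change -0.14 ± 0.32, adjusted p = 0.821). The 143BTK- signals were 254.1, 375 and 280.3 on ρ° arrays, against 345.6, 264.6 and 988.3 on ρ+ arrays (log2 change -0.59 ± 0.44, adjusted p = 0.763). The ρ+ C array was the highest of the 6 in both lines. Without it the change was 0.27 ± 0.21 in A549 and -0.02 ± 0.27 in 143BTK-. EDEM1, a mannosidase-like factor of the same pathway, had a log2 change of 0.52 in A549 and 0.27 in 143BTK-, and its groups did not overlap in either line, although neither change passed.

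KDELR1 and KDELR3, receptors that return proteins with a KDEL-type tail from the Golgi to the ER, rose in A549. KDELR1 read 762.3, 544.1 and 475.4 on ρ° arrays, against 389.3, 277.8 and 132.3 on ρ+ arrays (log2 change 1.26 ± 0.35, adjusted p = 0.0465). Its 143BTK- signals were 247.7, 350.9 and 221.9 on ρ° arrays, against 193.5, 183.6 and 218.6 on ρ+ arrays (log2 change 0.44, adjusted p = 0.684). The groups did not overlap in either line. In A549, without the ρ+ C array the KDELR1 change was 0.82 ± 0.24 (adjusted p = 0.0435). The call was lost without ρ° array A, B or C or ρ+ array B (adjusted p = 0.06 to 0.177), with no filter (adjusted p = 0.078) and with no intensity trend (adjusted p = 0.107). Probe set 207265_s_at of KDELR3 read 204.7, 171 and 144.6 on A549 ρ° arrays, against 56.4, 53.6 and 76.3 on A549 ρ+ arrays, a 2.80-fold difference (log2 change 1.49 ± 0.24, adjusted p = 0.00527). Its probe set 204017_at read 174.6, 175.8 and 137.2 on A549 ρ° arrays, against 49.2, 39.1 and 105.5 on A549 ρ+ arrays (log2 change 1.46 ± 0.35, adjusted p = 0.0256), a call that was lost without ρ° array A or B or ρ+ array A or B (adjusted p = 0.0684 to 0.107). In 143BTK- both KDELR3 changes were negative, with overlapping groups. There 207265_s_at read 98.8, 119.2 and 101.8 on ρ° arrays, against 115.4, 106.5 and 270.5 on ρ+ arrays (log2 change -0.49), and 204017_at read 59, 86 and 53.1 on ρ° arrays, against 68.8, 120.1 and 157.9 on ρ+ arrays (log2 change -0.76). Without the ρ+ C array these changes were -0.06 ± 0.26 and -0.49 ± 0.36.

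The difference between the changes of the lines passed for both KDELR3 probe sets. It was 1.98 ± 0.45 on the log2 scale for 207265_s_at (adjusted p = 0.0394) and 2.22 ± 0.53 for 204017_at (adjusted p = 0.0489). With SDF2L1 they made 3 member probe sets whose change was higher in A549 than in 143BTK- by this test, against 1.06% of the 12139 tested. For 0 the change was lower, against 0.89%. Only SDF2L1 passed when A549 ρ° array A, B or C, A549 ρ+ array B, or 143BTK- ρ° array A or C was left out. Both KDELR3 calls were also lost without A549 ρ+ array A. In all, that of 207265_s_at was lost in 8 of the 12 fits with 1 array left out (adjusted p = 0.0518 to 0.117). That of 204017_at was lost in 9 of them (adjusted p = 0.0642 to 0.13). Without the ρ+ C array of 143BTK- the difference was 1.55 ± 0.35 for 207265_s_at (adjusted p = 0.0467) and 1.95 ± 0.54 for 204017_at (adjusted p = 0.093). KDELR3 and SDF2L1 lie on chromosome 22, whose median change in 143BTK- was -0.25. With the median of each chromosome taken off, the differences no longer passed for KDELR3 207265_s_at (1.76, adjusted p = 0.0737) and KDELR3 204017_at (adjusted p = 0.0813), while that of SDF2L1 passed (1.76, adjusted p = 0.0297). Chromosome content of the cells was not measured.

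The calcium-binding proteins of the secretory pathway did not pass in A549. In 143BTK- RCN1 read 260.4, 344.7 and 244.8 on ρ° arrays, against 137.5, 194.4 and 200.7 on ρ+ arrays (log2 change 0.68 ± 0.26, adjusted p = 0.564). RCN2 read 362, 347.9 and 355 on ρ° arrays, against 205.7, 197.5 and 307 on ρ+ arrays by its brighter probe set (log2 change 0.61 ± 0.24, adjusted p = 0.57), and the other RCN2 probe set had a log2 change of 0.59. RCN1 and RCN2 are EF-hand proteins of the reticulocalbin family, and their groups did not overlap in 143BTK-. CALU (calumenin), of the same family, had a log2 change of -0.23 to 0.07 in 143BTK- and of 0.92 ± 0.36 in A549 at its probe set 214845_s_at (adjusted p = 0.129).

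Of the translocation genes, SSR1, the alpha subunit of the translocon-associated protein complex, rose in A549 by all 4 of its probe sets. The brightest, 200891_s_at, read 465, 554.8 and 474.6 on ρ° arrays, against 218.7, 281.3 and 322.2 on ρ+ arrays, a 1.83-fold difference (log2 change 0.88 ± 0.20, adjusted p = 0.0222). Probe set 200889_s_at read 249, 199.6 and 216.3 on ρ° arrays, against 110.9, 98.6 and 111.9 on ρ+ arrays (log2 change 1.05 ± 0.20, adjusted p = 0.0112). Every ρ° array was above every ρ+ array for each of the 4. Probe set 200890_s_at read 189.1, 102.8 and 177.1 on ρ° arrays, against 29.1, 56.3 and 55.9 on ρ+ arrays (log2 change 1.74 ± 0.34, adjusted p = 0.0113), and 201894_s_at read 307.6, 294.8 and 352.8 on ρ° arrays, against 200.5, 156.3 and 143.1 on ρ+ arrays (log2 change 0.94 ± 0.21, adjusted p = 0.0185). The call of 200890_s_at was lost without ρ° array A (adjusted p = 0.065), that of 200889_s_at without ρ° array A or ρ+ array B (adjusted p = 0.0554 to 0.065), that of 201894_s_at without ρ° array A or B or ρ+ array B (adjusted p = 0.0524 to 0.0791) and that of 200891_s_at without ρ° array A or B or ρ+ array A or B (adjusted p = 0.0633 to 0.0906). In 143BTK- the 4 changes lay between -0.08 and 0.54. There 200891_s_at read 459.1, 316.3 and 586.8 on ρ° arrays, against 533.1, 350.7 and 542.8 on ρ+ arrays, and 200889_s_at read 230.8, 205.2 and 244.1 on ρ° arrays, against 256.8, 205 and 220.4 on ρ+ arrays. The 143BTK- signals of 200890_s_at were 169.2, 154.5 and 135.8 on ρ° arrays, against 127.7, 97 and 93.3 on ρ+ arrays, and those of 201894_s_at 322.1, 331 and 415.3 on ρ° arrays, against 343.8, 259.8 and 260.4 on ρ+ arrays. Only for 200890_s_at did the groups not overlap there. The mean change over both lines passed for 200890_s_at (1.14 ± 0.22, adjusted p = 0.0145) and 201894_s_at (0.63 ± 0.15, adjusted p = 0.0371). It was lost for 200890_s_at without A549 ρ° array A (adjusted p = 0.0507), and for 201894_s_at without any 1 of 8 of the 12 arrays (A549 ρ° A, B or C, A549 ρ+ B or C, 143BTK- ρ° A or C, or 143BTK- ρ+ B; adjusted p = 0.0558 to 0.0959). The other subunits SSR2, SSR3 and SSR4 had log2 changes of 0.39, 0.33 and 0.37 in A549 with none passing.

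SERP1 (RAMP4), a small protein that binds the SEC61 channel, rose in A549 by 1 of its 3 probe sets, 200970_s_at, which read 374.3, 365.5 and 267.1 on ρ° arrays, against 185.5, 151.7 and 207.4 on ρ+ arrays (log2 change 0.88 ± 0.22, adjusted p = 0.0291). The call was lost without ρ° array A or B or ρ+ array A or B (adjusted p = 0.0611 to 0.129). In 143BTK- this probe set read 373.9, 400 and 303.8 on ρ° arrays, against 394.9, 337.9 and 387.5 on ρ+ arrays. The brightest SERP1 probe set read 806.1, 915.5 and 872.1 on A549 ρ° arrays, against 624.3, 667.1 and 798.3 on A549 ρ+ arrays (log2 change 0.32, adjusted p = 0.242), and in 143BTK- it read 1045.3, 1263.6 and 974.8 on ρ° arrays, against 1314.5, 1290.3 and 1453.7 on ρ+ arrays (log2 change -0.31). All ρ° arrays were above all ρ+ arrays in A549 and below them in 143BTK- for the brightest probe set. TRAM1, which contacts chains as they enter the channel, was the only member that fell in A549. Its brightest probe set read 1197.6, 1774.4 and 1428 on ρ° arrays, against 2194.9, 2248.3 and 2407.9 on ρ+ arrays (log2 change -0.66 ± 0.16, adjusted p = 0.0311), a call that was lost without ρ° array A or C or ρ+ array A or B (adjusted p = 0.0622 to 0.135). Its remaining probe sets had log2 changes of -0.20 and -0.68 without passing, and in 143BTK- the brightest read 599.4, 508.1 and 589.6 on ρ° arrays, against 517.3, 400.2 and 325.4 on ρ+ arrays (log2 change 0.47, and 0.31 without the ρ+ C array). TRAM1 lies on chromosome 8, whose median change in A549 was -0.26, and with the chromosome median taken off its change was -0.39 (adjusted p = 0.162).

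SEC63, a J-domain protein that recruits HSPA5 to the channel, read 215.4, 226.6 and 212 on A549 ρ° arrays, against 127.1, 95.1 and 168.2 on A549 ρ+ arrays by its brightest probe set (log2 change 0.78 ± 0.24, adjusted p = 0.0634), and another had a log2 change of 0.82 ± 0.32. Without the ρ+ C array the change of the brightest was 0.99 ± 0.22 and passed (adjusted p = 0.0155). SEC62, its partner, had a log2 change of 0.55 ± 0.17 (adjusted p = 0.0721). Of the subunits of the channel itself, SEC61A1 had a log2 change of 0.10 in A549 (-0.08 without the ρ+ C array) and -0.03 in 143BTK-, and SEC61B read 586.1, 675.1 and 498.6 on A549 ρ° arrays, against 645.5, 815.8 and 671.8 on A549 ρ+ arrays. In 143BTK- SEC61B read 662.6, 520.4 and 730.6 on ρ° arrays, against 1003.7, 840.3 and 886 on ρ+ arrays (log2 change -0.52 ± 0.20, adjusted p = 0.564). The 5 oligosaccharyltransferase subunits (DDOST, RPN1, RPN2, DAD1 and STT3A) had positive changes in A549 at the brightest probe set of each, 0.01 to 0.62, with none passing. Without the ρ+ C array that of RPN2 was -0.04 and that of STT3A, the highest of the 5, was 0.37. The one with an unadjusted p under 0.05, RPN1, read 281.3, 182.3 and 272.3 on A549 ρ° arrays, against 170.1, 184.6 and 157.2 on A549 ρ+ arrays (log2 change 0.50, adjusted p = 0.181). In 143BTK- they lay between -0.33 and 0.34, and the highest, that of RPN1, was -0.01 without the ρ+ C array. The lowest of these was a probe set of RPN2, 213399_x_at, which read 1829.2, 1814.3 and 1748.7 on 143BTK- ρ° arrays, against 2118.5, 2370.8 and 2291.9 on 143BTK- ρ+ arrays (adjusted p = 0.577).

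**Figure D4:**
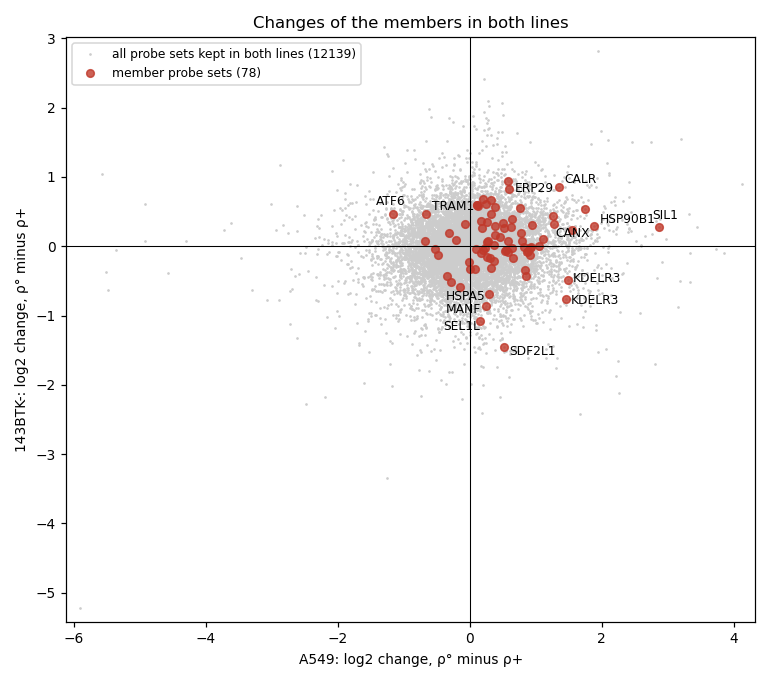
Each point is a probe set tested in both lines, placed by its log2 change (ρ° minus ρ+) in A549 across and in 143BTK- upward, in red for the 78 member probe sets and in grey for all 12139. Of the members 36 lie in the upper right, higher in ρ° cells of both lines, 30 are higher in A549 and lower in 143BTK-, 6 are the reverse and 6 are lower in both.

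Across the 78 member probe sets tested in both lines, 46.2% were higher in ρ° cells of both lines, against 26.5% of all probe sets, and 38.5% were higher in A549 and lower in 143BTK-, against 23.6% of all. Of 20 genes with several tested probe sets in A549, all changes were positive for 15, all negative for 1 and mixed for 4. In 143BTK- 10 of 21 such genes were mixed. The median difference of the changes between the lines was 0.35 over the members, against 0.01 over all probe sets.

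Other genes of the ER, which are no members, were measured by 93 probe sets of 55 genes. In A549 7 of the 83 tested probe sets were higher in ρ° cells (8.43%, against 5.66% of all probe sets) and 3 were lower (3.61%, against 5.2%), with a median change of 0.18, and in 143BTK- 0 of 89 passed. The highest were a probe set of UBE2J1, a ubiquitin-conjugating enzyme of ER-associated degradation, which read 147.1, 99.6 and 163.1 on A549 ρ° arrays, against 41.3, 32.4 and 50.2 on A549 ρ+ arrays (log2 change 1.72 ± 0.28, adjusted p = 0.00521), and SRPRA, the alpha subunit of the signal recognition particle receptor (log2 change 1.68 ± 0.43, adjusted p = 0.0321). TMX1, a membrane-bound disulphide isomerase (1.32), another UBE2J1 probe set (1.20), SRP72, of the signal recognition particle (1.10), UBXN4, which recruits the ATPase VCP to the ER (1.09), and QSOX1, a sulphydryl oxidase (0.95), were also higher. All of these genes but QSOX1 had other probe sets that did not pass. The brighter TMX1 probe set read 367.9, 233.9 and 390.7 on A549 ρ° arrays, against 241.8, 297 and 393.3 on A549 ρ+ arrays. Groups of the brightest SRP72 probe set overlapped in A549. The SRPRA probe set that passed was dim, at 13.2 to 24.1 on A549 ρ+ arrays. The 3 that were lower in A549 were TRIB3, a target of ATF4 and DDIT3 (log2 change -1.16 ± 0.20, adjusted p = 0.00717), the ER-bound transcription factor CREB3 (-0.83) and DERL1, of the retrotranslocation channel (-0.80). DERL1 read 160.3, 134.7 and 102.7 on 143BTK- ρ° arrays, against 219.9, 224.3 and 253.4 on 143BTK- ρ+ arrays, and its mean change over both lines was -0.82 ± 0.15 (adjusted p = 0.0133). The mean change also passed for SEC11A, a catalytic subunit of signal peptidase (0.78), and PRKCSH, the beta subunit of glucosidase II (0.70). The list of other unfolded protein response genes had 14 tested genes, ATF4, EIF2AK3, DDIT3 and PPP1R15A among them. Of these, 0 rose and 2 fell in A549, against 6.73% and 6.8% of all genes tested. With only 14 genes, these counts are too small to be read as above or below those shares.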

How the data were processed

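The 12 Affymetrix human expression arrays, 3 for each of 4 groups, were hybridised with RNA from separate extractions, which the study treats as independent biological replicates. The deposited values are linear intensities of MAS5 type that the authors quantile-normalized within each cell line, so no level was set across lines. Intensities ran from 0.1 to 14101.7 in A549 and to 12270.4 in 143BTK-. Gene names came from the annotation of the platform, by which 19071 had 1 gene, 1043 several and 2169 none, and symbols were updated through RefSeq (19059 matched, 12 not). Only probe sets with 1 gene were used as members. The number of probe sets kept in each line followed the study's methods, as the brightest of the line by mean log2 intensity (down to a mean intensity of 19.1 in A549 and 12.6 in 143BTK-), and 12139 were kept in both.

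Changes (ρ° minus ρ+) were tested on log2 intensities with limma 3.58.1 in R 4.3.3 (eBayes with an intensity trend), with Benjamini-Hochberg adjustment over all kept probe sets and a threshold of 0.05. Errors given after ± are standard errors of the fit. One fit of the 12 arrays gave the average of the lines' changes, called the mean change, and their difference (A549 minus 143BTK-). The study's own error model was fitted on arrays not analysed here, so limma was used instead. The fits were tested on simulated data. With 3 arrays a group, the number of arrays limits the precision. Promoter windows were searched with Python 3.11.15, and figures were drawn with matplotlib 3.10.9.

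The members, lists and tests were chosen with earlier results of these data known. Values on every array are given for members with a probe set that passed in any of the 4 comparisons and for HSPA5, HSP90B1, CALR, CANX, XBP1 and HERPUD1. Members at an unadjusted p under 0.05 in a line are named with values, and the rest are given by counts and ranges, with a few named after their values were seen. Alternatives were 16 or 64 added to every intensity, no filter, a mean of at least 100, no trend, cyclic loess, quantile normalization over 12 arrays, the array letter as a block, chromosome medians taken off, and arrays left out. Leaving out the ρ° B and ρ+ C arrays of 143BTK- together was added after seeing the data.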

Additional observations from a re-analysis of the deposited data

Results flagged for a closer look

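The changes of 6 probe sets differed between the lines by the test of the difference itself (A549 minus 143BTK-, log2 scale, limma with Benjamini-Hochberg adjustment over 12139 probe sets). Groups held 3 arrays, so single arrays were not tested as outliers. Among the members, the difference was 1.97 for SDF2L1 (adjusted p = 0.017), 1.98 for KDELR3 probe set 207265_s_at (adjusted p = 0.0394) and 2.22 for KDELR3 probe set 204017_at (adjusted p = 0.0489).

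Among the other ER genes, the UBE2J1 probe set 217826_s_at differed by 2.32 (adjusted p = 0.0406). In 143BTK- it read 93.2, 82.3 and 219.4 on ρ° arrays, against 133.6, 157.4 and 277.9 on ρ+ arrays. The SRP72 probe set 208800_at differed by 1.81 (adjusted p = 0.0184). It read 272, 168 and 247.5 on A549 ρ° arrays, against 99.6, 94.5 and 122.7 on A549 ρ+ arrays, and 255.7, 300.1 and 362.6 on 143BTK- ρ° arrays, against 460.3, 432 and 612.7 on 143BTK- ρ+ arrays. The MCFD2 probe set 212245_at differed by -1.17 (adjusted p = 0.0429). It read 161.9, 134.5 and 165.6 on A549 ρ° arrays, against 216.2, 237.7 and 272.5 on A549 ρ+ arrays, and 575.2, 448.3 and 597.9 on 143BTK- ρ° arrays, against 372.8, 388.9 and 362.9 on 143BTK- ρ+ arrays. A second MCFD2 probe set, 212246_at, differed by 0.26 (adjusted p = 0.74).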

How the results depend on the processing

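No change that passed turned its direction under any alternative run. Among members that did not pass, 5 probe sets turned direction in A549 without its ρ+ C array (CALR 212953_x_at, CALU 200755_s_at, HERPUD1, RPN2 213399_x_at and SEC61A1), and 12 in 143BTK- without its own, none of which passed with or without it. In A549 the count of member probe sets that passed was 19 and ranged over 15 to 23 under the alternatives that kept all arrays, except for 8 with no intensity trend, and was 22 with both ρ+ C arrays left out. With 1 array left out it was 5 to 22. KDELR3 207265_s_at, PDIA6 207668_x_at, both passing CANX probe sets and HSP90B1 216449_x_at passed with any 1 of the 6 arrays left out, while PDIA6 208639_x_at passed with none of the 6 left out. With chromosome medians taken off, SERP1 (adjusted p = 0.06), ERP29 (adjusted p = 0.0577) and TRAM1 (adjusted p = 0.162) no longer passed in A549. In 143BTK- the count was 0 under every alternative run by limma's adjusted p. The mean change gave 8 calls, 4 with no trend and 3 to 13 with 1 array left out. The difference between the lines gave 3 calls, 1 with no filter, 1 with no trend, 1 with chromosome medians taken off, and 1 to 4 with 1 array left out. The causes were not tested. Correlations of same-letter deviations between ρ° and ρ+ arrays were 0.11, 0.05 and 0.09 in A549 and 0.36, -0.11 and -0.02 in 143BTK-. Each A549 ρ° array correlated best with its own letter, and in 143BTK- only array A did. With the replicate block the counts were 18 in A549, 0 in 143BTK-, 8 for the mean change and 1 for the difference, which was SDF2L1.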
